A study of Homo sapiens with 24 samples.

Results

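Cytosolic ribosomal proteins are the protein parts of the 2 subunits of the cell's ribosome. They were taken here as every gene whose symbol begins with RPL or RPS and a digit, with RPLP0, RPLP1, RPLP2 and RPSA added. Pseudogenes, paralogs with an L suffix and the RPS6K kinases were left out. The rule found 68 of the 18811 named genes on the array, 42 of the large and 26 of the small subunit, read by 108 of the 47231 probes. After a filter on detection, 66 of the 68 genes were tested in WM35 and 67 in Mel-624. RPL10 passed in neither line. The 2 Y-linked genes are counted without values, which leaves 65 genes with values.

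The study used Illumina BeadChips to read transcript levels in a pair of human melanoma lines, WM35 and Mel-624, and asked how signalling by insulin-like growth factor 1 (IGF1) shapes them at normal and at low oxygen. WM35 cells spent 24 h at 21% oxygen (normoxia) or 1% oxygen (hypoxia), with no added factor (control) or with recombinant IGF1 (rhIGF1) at 100 ng/mL for 6 h. Mel-624 cells were kept in normoxia or hypoxia for 3 days after transfection with an siRNA pool. The pool was aimed at the receptor of IGF1 (siIGF1R) or was a control pool (siControl), so every Mel-624 group, controls included, was transfected. The labels give no oxygen percentage for Mel-624, so its hypoxia cannot be taken to equal the 1% of WM35. Each of the 8 groups had 3 arrays, A, B and C, and since no label states that these came from different cultures, the p-values speak of the spread between these samples, which may be technical.

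Between 13948 and 15987 probes were detected per array. The siRNA target, IGF1R, the receptor itself, read 6.98, 7.06 and 7.07 (log2) with siControl and 6.03, 6.28 and 6.39 with siIGF1R in normoxia. In hypoxia it read 8.46, 8.65 and 8.23 with siControl and 6.19, 7.02 and 6.59 with siIGF1R. IGF1R was lower with siIGF1R by 0.81 ± 0.18 (log2 ± SE, limma adjusted p = 0.0099) in normoxia and by 1.84 ± 0.18 in hypoxia (limma adjusted p = 2.5e-05). The siControl level was higher in hypoxia, so the larger fall does not mean that less IGF1R was left there. Array B of hypoxia siIGF1R, at 7.02, lay among the normoxia siControl values. Of the 7 melanocyte markers with a probe, Mel-624 had 6 detected on all 12 arrays, and WM35 had only SOX10, with PMEL, MLANA, TYR, TYRP1 and S100B detected on none. The lines lay on separate BeadChips and were normalized and fitted apart, so that line and BeadChip cannot be told apart. The arrays are bulk measurements, in which fewer cells of a type and less RNA per cell cannot be told apart.

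A ribosome holds 1 copy of nearly every one of these proteins, bound to ribosomal RNA, and their genes are transcribed in close balance. Their mRNAs typically begin with a C followed by an unbroken run of pyrimidines, the terminal oligopyrimidine tract, through which the kinase complex mTORC1, downstream of the IGF1 receptor, governs how much they are translated. That control acts on translation of existing mRNA, which an array of transcript levels does not measure. Assembly of ribosomes in the nucleolus is costly and is known to be curbed in growth-arrested or oxygen-starved cells.

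The starts of 6 of these genes are shown because their transcripts carry the results below or because the tract at their start is the shared sequence feature of the class. Sequences were taken from RefSeq on GRCh38.p14, with 10 bases before and 20 from the annotated start base, and capitals mark the unbroken run of C and T that opens with the start base. RPS6 lies on the minus strand at chr9:19380217-19380246, RPL28 on the plus strand at chr19:55385922-55385951, and RPL22 on the minus strand at chr1:6199576-6199605. RPL34 lies on the plus strand at chr4:108620566-108620595, RPL29 on the minus strand at chr3:51995876-51995905, and RPS7 on the plus strand at chr2:3575250-3575279.
RPS6: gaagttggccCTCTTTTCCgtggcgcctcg
RPL28: cctcgccttcCTCTTTCCgtctcaggtcgc
RPL22: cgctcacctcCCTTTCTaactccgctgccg
RPL34: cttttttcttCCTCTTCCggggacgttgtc
RPL29: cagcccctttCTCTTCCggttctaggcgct
RPS7: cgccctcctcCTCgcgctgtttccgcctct
The run is 9 bases long in RPS6, 8 in RPL28 and RPL34, 7 in RPL22 and RPL29 and 3 in RPS7, where the annotated start base is C but the run is short.

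Of the 65 genes, 55 matched the RefSeq table of starts. A start base C followed by at least 4 bases that are each C or T, read on the gene's own strand, stood at an annotated start of 40 of the 55 (72.7%), against 1404 of the 27305 genes of that table (5.14%). Such a tract lay within 10 bases of an annotated start in 50 of the 55 (90.9%), against 37.4% of all genes. The runs of C and T ranged from 0 to 19 bases with a median of 7, the longest being that of RPL39, and 12 of the 55 had no C at the start base. A match describes the letters in this window and says nothing on its own about how the transcript was regulated.

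Ribosomal protein transcripts gave some of the strongest signals on every array. On the normalized log2 scale the median over the 65 genes lay between 13.51 and 13.76 on the WM35 arrays and between 13.65 and 13.88 on the Mel-624 arrays. The median over all tested genes lay near 8 on each array. Before normalization between arrays, probes of the ribosomal protein genes made up 6.61% to 6.70% of the summed signal of kept probes with siControl in normoxia and 6.17% to 6.24% with siIGF1R in normoxia. In hypoxia the share was 6.90% to 7.31% with siControl and 6.12% to 6.84% with siIGF1R. The shares with siIGF1R lay below those with siControl on every array at both oxygen levels, while in WM35 the shares of the 4 groups spanned 6.69% to 7.79%.

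**Figure D1:**
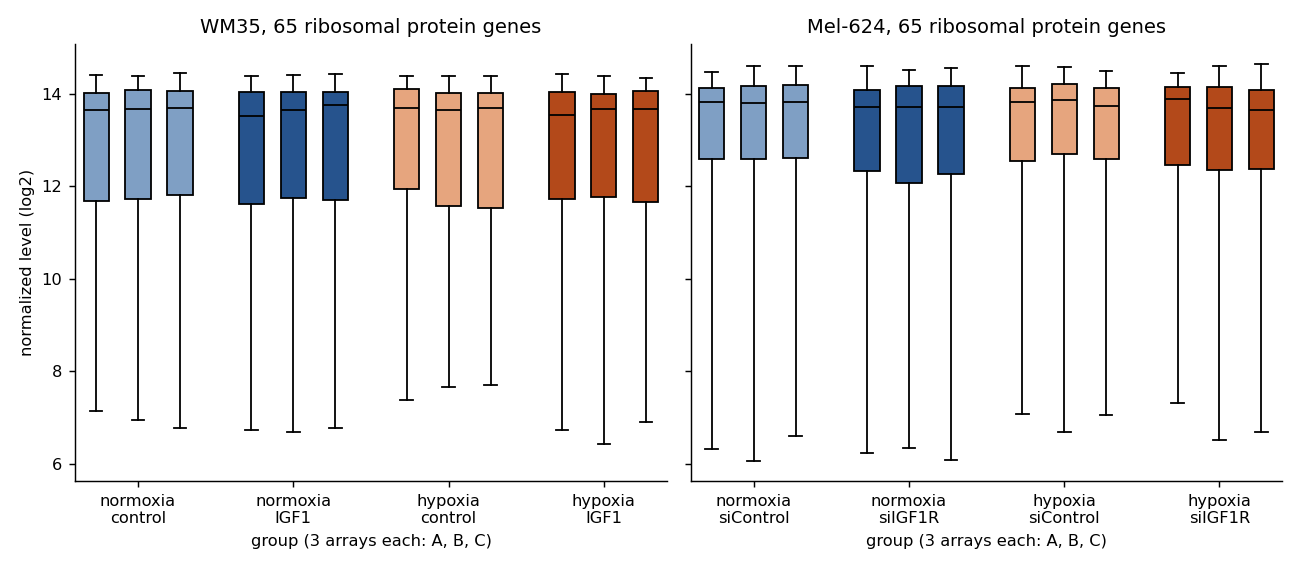
Normalized level (log2) of 65 ribosomal protein genes on each of the 24 arrays, by line and group. Boxes span the middle 50% of genes, lines mark the median and whiskers reach the lowest and highest gene. The medians stay within 13.51 to 13.88 on all 24 arrays, and the lowest gene of each array sits between 6 and 8.

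Depletion of the IGF1 receptor gave more lower than higher ribosomal protein transcripts in Mel-624. In normoxia 9 of the 67 tested genes fell (13.4%) and 1 rose (1.49%) with siIGF1R, where 7.47% of the 9292 tested genes fell and 8.49% rose. In hypoxia 10 fell (14.9%) and 1 rose (1.49%), where 12.7% of all genes fell and 13.1% rose, so the share that fell in hypoxia was close to the background. The median change over the 67 genes was -0.11 in normoxia and -0.06 in hypoxia, against 0.00 and 0.02 over all genes, and 49 of the 67 changes lay below 0 at each oxygen level. Most changes were small, with 51 and 55 of the 67 within 0.25 of 0. Genes were called with limma at an adjusted p below 0.05 over all tested genes. When arrays were centred on their medians instead of quantile normalized, 19 genes fell and 1 rose in normoxia, against 9.73% and 7.02% of all genes, and 20 fell and 0 rose in hypoxia, against 13.8% and 11.7% of all genes. Without the hypoxia siControl array A, B or C the count called in hypoxia was 6, 5 or 4, without the hypoxia siIGF1R array B or C it was 4 or 3, and in normoxia it stayed between 7 and 12 whichever array was left out.

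RPS7, a small subunit protein that is mutated in some patients with Diamond-Blackfan anaemia and that binds the p53 regulator MDM2, fell most. In normoxia it read 10.42, 10.33 and 10.24 with siControl and 9.50, 9.21 and 9.38 with siIGF1R. In hypoxia it read 10.53, 10.51 and 10.40 with siControl and 9.96, 9.59 and 9.51 with siIGF1R. All 3 arrays with siIGF1R lay below all 3 with siControl at both oxygen levels. The fall was 0.97 ± 0.12 in normoxia, a fold of 1.96 (95% interval of the log2 change -1.23 to -0.70, limma adjusted p = 0.00041), and 0.80 ± 0.12 in hypoxia, a fold of 1.74 (limma adjusted p = 0.0006). A second, dimmer RPS7 probe changed by -1.03 and -0.84.

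The other falls at both oxygen levels were in the large subunit. RPL34, RPL29, RPL36, RPL36A, RPL28 and RPL23A were called lower in normoxia and in hypoxia, which with RPS7 makes 7 genes, 77.8% of those that fell in normoxia and 70.0% of those that fell in hypoxia. Over all tested genes, 441 fell at both oxygen levels, 63.5% of those that fell in normoxia and 37.4% of those that fell in hypoxia. RPL34 read 9.97, 9.80 and 9.82 with siControl and 9.32, 9.21 and 9.25 with siIGF1R in normoxia, and its change was -0.60 ± 0.12 there (limma adjusted p = 0.0052) and -0.44 ± 0.12 in hypoxia (limma adjusted p = 0.016). RPL23A, which sits at the mouth of the exit tunnel where the signal recognition particle docks, read 10.17, 9.72 and 9.91 with siControl and 9.55, 9.23 and 9.22 with siIGF1R in normoxia. Its change was -0.60 ± 0.13 in normoxia and -0.42 ± 0.13 in hypoxia. RPL29, also known as a heparin-binding protein, read 9.91, 9.70 and 9.72 with siControl and 9.25, 9.14 and 9.41 with siIGF1R in normoxia, and changed by -0.51 ± 0.10 there and by -0.40 ± 0.10 in hypoxia. For none of these genes did the arrays of the 2 siRNA groups overlap at the same oxygen level. That held for every ribosomal protein gene called with siIGF1R, so it gives no support beyond the calls.

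RPL36A, a protein close to the exit site for spent tRNA and nearly identical to the product of its paralog RPL36AL, changed by -0.53 ± 0.12 in normoxia and -0.34 ± 0.12 in hypoxia. RPL36 changed by -0.30 ± 0.09 and -0.35 ± 0.09. In normoxia RPL26 fell as well (-0.56 ± 0.12, limma adjusted p = 0.0077), a large subunit protein that also binds p53 mRNA, and so did RPS3A of the small subunit (-0.38 ± 0.10, limma adjusted p = 0.025). RPL7A, RPL7 and RPL13 were called lower in hypoxia, at -0.51 ± 0.11, -0.48 ± 0.17 and -0.39 ± 0.13. In the other oxygen level these 5 genes were not called, and no ribosomal protein gene had an siIGF1R effect that differed between the oxygen levels in the test of that difference.

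RPL22 went the other way. This RNA-binding protein of the large subunit, whose loss is known from T cell leukaemias, was the only gene of the class called higher with siIGF1R. It read 11.34, 11.21 and 11.10 with siControl and 11.71, 11.66 and 11.65 with siIGF1R in normoxia, and 11.49, 11.34 and 11.44 against 11.68, 11.77 and 11.69 in hypoxia. The siIGF1R arrays lay above the siControl arrays in both, by 0.46 ± 0.09 in normoxia (limma adjusted p = 0.005) and 0.29 ± 0.09 in hypoxia (limma adjusted p = 0.028). Under median centring it was still called higher in normoxia and was not called in hypoxia.

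**Figure D2:**
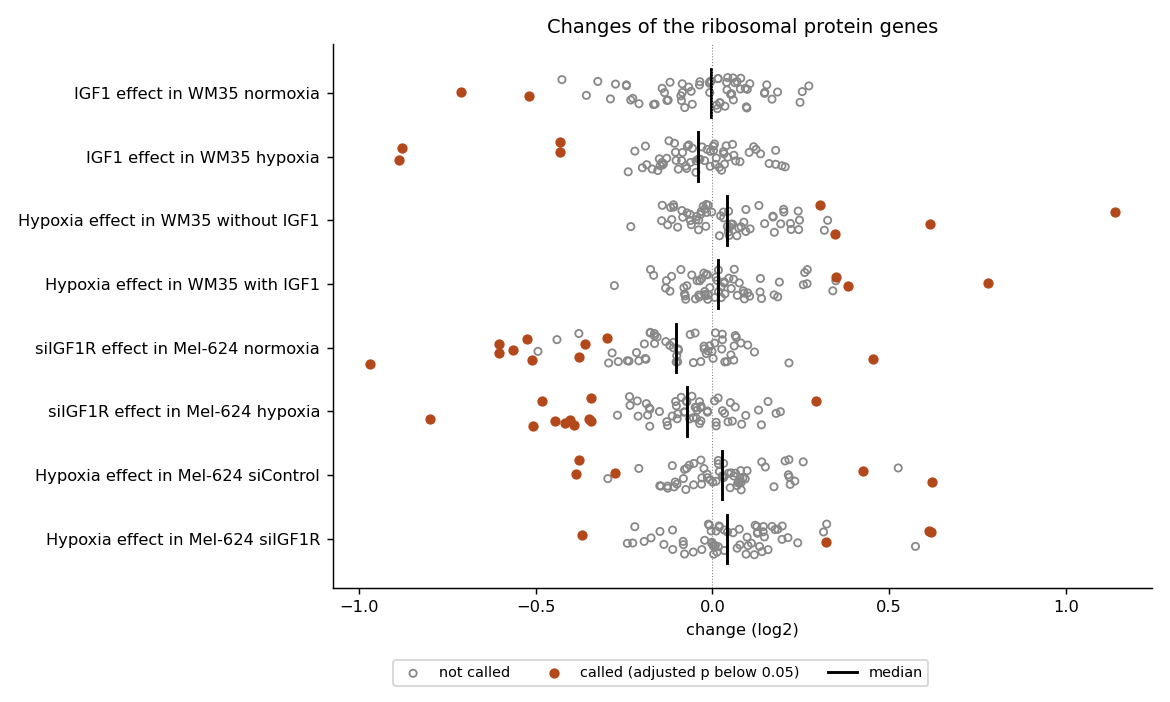
Change (log2) of each of 65 ribosomal protein genes in the 8 pairwise comparisons. Each point is 1 gene, filled where limma called it at an adjusted p below 0.05, and black bars mark the median. Most points lie within 0.25 of 0, the filled points of both siIGF1R comparisons lie to the left except RPL22, and the widest single change is that of RPL28 with hypoxia in WM35, at 1.14.

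Among the tested genes named beforehand for their known roles, RPL22 was called in 4 of the 8 pairwise comparisons. The other 10, RPS6, RPL5, RPL11, RPLP1, RPLP2, RPS3, RPS19, RPL3, RPL39 and RPL41, were called in none. Changes of these 10 ran from -0.27 to 0.19 with a smallest limma adjusted p of 0.11. RPS6, the substrate of the S6 kinases that act below the IGF1 receptor, read 13.87, 13.88 and 13.86 with siControl and 13.62, 13.71 and 13.75 with siIGF1R in normoxia. In hypoxia it read 13.82, 13.62 and 13.73 with siControl and 13.38, 13.61 and 13.65 with siIGF1R. The arrays overlapped in hypoxia and not in normoxia, and the change was -0.18 ± 0.10 in each (95% intervals -0.38 to 0.03, limma adjusted p = 0.23 and 0.19). RPL5 and RPL11, which carry the 5S ribosomal RNA and can bind MDM2, and the stalk proteins RPLP1 and RPLP2, which recruit elongation factors, stayed within the same range. By subunit, 7 of 41 large and 2 of 26 small subunit genes fell with siIGF1R in normoxia, with medians of -0.16 and -0.10, and 9 and 1 fell in hypoxia. Among 16 tested genes of the Diamond-Blackfan anaemia list, RPS7 and RPL26 fell in normoxia and RPS7 in hypoxia. Of 8 tested proteins that line the exit tunnel, RPL23A and RPL26 fell and RPL22 rose in normoxia. In hypoxia RPL23A fell and RPL22 rose. Over all genes 7.47% fell and 8.49% rose with siIGF1R in normoxia, and 12.7% fell and 13.1% rose in hypoxia. The subunits and these small lists were not tested against those shares.

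Hypoxia moved few ribosomal protein transcripts in Mel-624 under quantile normalization. With siControl 2 of the 67 genes rose (2.99%) and 3 fell (4.48%), where 23.2% of all tested genes rose and 28.4% fell. With siIGF1R 3 rose (4.48%) and 1 fell (1.49%), where 22.7% rose and 27.3% fell. The medians were 0.02 and 0.04, against -0.03 and -0.01 over all genes, and the middle 50% of changes with siControl ran from -0.07 to 0.08 in the ribosomal protein genes and from -0.38 to 0.30 over all genes. These hypoxia comparisons share arrays with the siIGF1R comparisons above. Without the hypoxia siControl array C the siControl count was 1, and it was 3 without the normoxia siControl array B or the hypoxia siControl array A. Without the normoxia siIGF1R array C the siIGF1R count was 2.

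This result turned on how the arrays were scaled. With each array centred on its median, 28 ribosomal protein genes rose and 2 fell with siControl, against 30.3% and 23.7% of all genes, and 34 rose and 1 fell with siIGF1R, against 31.3% and 22.3%. The medians of the 67 genes were then 0.29 and 0.30, and those of all genes 0.08 and 0.10, the latter 0.12 above its value under quantile normalization. The 56 other genes at least as bright as the median ribosomal protein gene moved with them, with medians of 0.25 and 0.23 and with 21 and 22 of the 56 called higher. Cyclic loess, another scaling, called 3 up and 3 down with siControl and 2 up and 2 down with siIGF1R, with medians of -0.02 and 0.01, so the direction of the small median change with siControl turned. What part bright probes as such have in the difference between scalings was not tested.

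**Figure D3:**
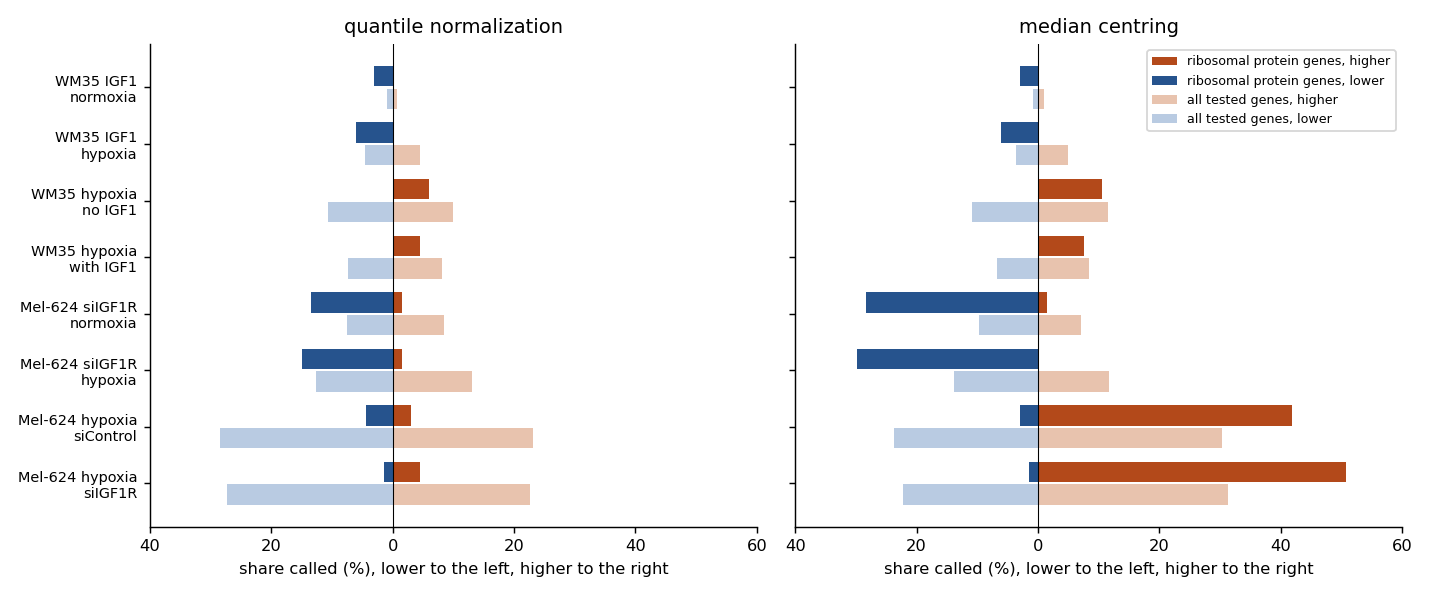
Share (%) of ribosomal protein genes and of all tested genes called higher (to the right) or lower (to the left) in each pairwise comparison, with quantile normalization and with median centring. With median centring the Mel-624 hypoxia bars of the ribosomal protein genes reach 41.8% and 50.7% higher, against 2.99% and 4.48% with quantile normalization, while the siIGF1R bars point lower under both.

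The genes called in Mel-624 hypoxia were mostly among the dimmer ones. RPL14, a large subunit protein, read 6.32, 6.05 and 6.59 in normoxia and 7.09, 6.68 and 7.05 in hypoxia with siControl. With siIGF1R it read 6.24, 6.35 and 6.09 in normoxia and 7.32, 6.52 and 6.69 in hypoxia. The hypoxia arrays lay above the normoxia arrays under each siRNA, by 0.62 ± 0.20 with siControl and 0.62 ± 0.20 with siIGF1R (limma adjusted p = 0.017 and 0.018). RPL23A rose by 0.43 ± 0.13 and 0.61 ± 0.13. RPS7 rose by 0.32 ± 0.12 with siIGF1R (limma adjusted p = 0.044). RPL28 fell under each siRNA, RPL36A fell with siControl by 0.38 ± 0.12, and RPS26, which lies where mRNA leaves the ribosome, fell with siControl by 0.28 ± 0.09 (limma adjusted p = 0.022).

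In WM35 hypoxia raised a few large subunit transcripts. Without IGF1 4 of the 66 tested genes rose (6.06%) and 0 fell, where 9.98% of the 9569 tested genes rose and 10.7% fell, and with IGF1 3 rose (4.55%) and 0 fell, where 8.19% rose and 7.36% fell. The share that rose was below the background in both. RPL28 rose most in both. RPL37 rose by 0.62 ± 0.14 without IGF1 (limma adjusted p = 0.0073), RPL12, a protein at the base of the stalk, by 0.30 ± 0.10 without IGF1 (limma adjusted p = 0.04), and RPS28 of the small subunit by 0.38 ± 0.10 with IGF1 (limma adjusted p = 0.022). RPL22 read 11.18, 11.16 and 11.26 in normoxia and 11.64, 11.47 and 11.53 in hypoxia without IGF1, and 11.04, 10.84 and 10.99 against 11.17, 11.31 and 11.45 with IGF1. Its hypoxia arrays lay above the normoxia arrays under each condition, by 0.35 ± 0.10 in both (limma adjusted p = 0.026 and 0.031). With median centring 7 genes rose without IGF1 and 5 with it, against 11.6% and 8.46% of all genes, and 0 fell in either, against 10.9% and 6.74%. The count without IGF1 was 2 without the normoxia control array A or B, without the hypoxia control array A or C, or without the normoxia control array C and the hypoxia control array A together. With IGF1 it was 1 without the hypoxia rhIGF1 array B or C.

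Added IGF1 raised no ribosomal protein transcript in WM35. In normoxia 0 of the 66 genes rose and 2 fell (3.03%), where 0.69% of all genes rose and 0.888% fell, and in hypoxia 0 rose and 4 fell (6.06%), where 4.5% rose and 4.56% fell. By unadjusted p below 0.05, 10 and 6 of the 66 passed (15.2% and 9.09%), against 18.6% and 24.6% of all genes. The medians were 0.00 and -0.04, against 0.00 and 0.00 over all genes, and 56 and 62 of the 66 changes lay within 0.25 of 0. RPL23, a large subunit protein that can bind MDM2, read 9.18, 9.50 and 8.98 in control and 8.52, 8.48 and 8.53 with IGF1 in normoxia, a fall of 0.71 ± 0.16 (limma adjusted p = 0.049). In hypoxia RPL13A, known for a second life outside the ribosome in the interferon-induced GAIT complex, read 13.46, 13.35 and 13.25 in control and 12.90, 12.89 and 12.96 with IGF1, a fall of 0.43 ± 0.09 (limma adjusted p = 0.014). RPL7 fell by 0.43 ± 0.11 in hypoxia (limma adjusted p = 0.033). The arrays of control and IGF1 did not overlap for any of these. That held for every ribosomal protein gene called with IGF1, so it gives no support beyond the calls. Of 25 other ways of processing or leaving out arrays, 16 lost the RPL23 call and 11 lost the RPL7 call. The RPL7 call was lost without any 1 of the 6 hypoxia arrays. The normoxia count was close to its limit, being 0 without the normoxia control array A or B, without any 1 of the 3 normoxia rhIGF1 arrays, or without the hypoxia control array B or hypoxia rhIGF1 array B, and 1 without the normoxia control array C or the hypoxia rhIGF1 array A or C. The hypoxia count was 2 without the hypoxia rhIGF1 array B.

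RPL37 and RPL28 stood out in WM35. RPL37, a zinc-binding protein of the large subunit, read 7.15, 6.94 and 6.78 in normoxia control and 6.72, 6.68 and 6.78 in normoxia with IGF1. In hypoxia it read 7.37, 7.66 and 7.70 in control and 6.74, 6.43 and 6.90 with IGF1. The hypoxia controls lay above all 9 other arrays of the line. The change with IGF1 was -0.89 ± 0.14 in hypoxia (95% interval -1.18 to -0.59, limma adjusted p = 0.0026) and -0.23 ± 0.14 in normoxia (limma adjusted p = 0.39). The difference between these effects, -0.66 ± 0.19, did not pass (limma adjusted p = 0.31).

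RPL28, a large subunit protein with no counterpart in bacteria, was the only gene of the class called in all 8 pairwise comparisons, and its hypoxia change pointed opposite ways in the lines. In WM35 it read 8.72, 8.80 and 8.64 in normoxia control, 8.07, 8.31 and 8.23 in normoxia with IGF1, 9.93, 9.80 and 9.84 in hypoxia control and 8.86, 8.91 and 9.17 in hypoxia with IGF1. No 2 of these 4 groups overlapped. Hypoxia raised it by 1.14 ± 0.11 without IGF1, a fold of 2.20 (95% interval of the log2 change 0.91 to 1.37, limma adjusted p = 1.4e-05), and by 0.78 ± 0.11 with IGF1 (limma adjusted p = 0.00035), while IGF1 lowered it by 0.52 ± 0.11 in normoxia (limma adjusted p = 0.037) and by 0.88 ± 0.11 in hypoxia (limma adjusted p = 0.00082). These comparisons share control arrays. In Mel-624 it read 8.30, 8.19 and 8.46 with siControl and 7.86, 7.91 and 8.09 with siIGF1R in normoxia, and 7.96, 7.87 and 7.96 with siControl and 7.69, 7.43 and 7.64 with siIGF1R in hypoxia. Each step, from normoxia to hypoxia and from siControl to siIGF1R, went down. The changes were -0.39 ± 0.10 for hypoxia with siControl (limma adjusted p = 0.0077), -0.37 ± 0.10 for hypoxia with siIGF1R, and -0.36 ± 0.10 and -0.34 ± 0.10 for siIGF1R in normoxia and hypoxia. RPL28 was read by 1 probe, so no second probe bears on these values. The lines also differed in time in hypoxia and in transfection, which cannot be told apart from line in the opposite hypoxia changes.

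**Figure D4:**
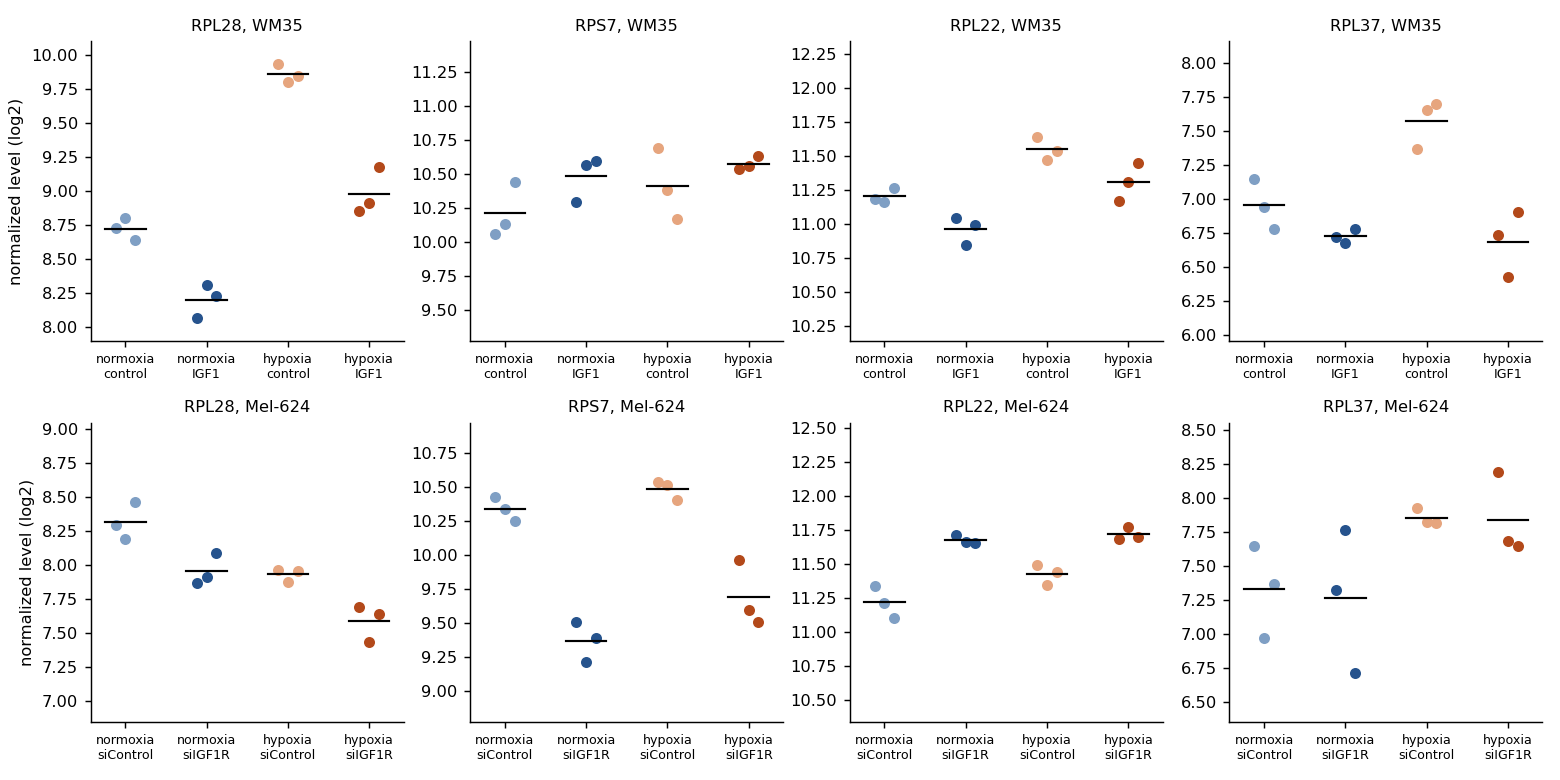
Normalized level (log2) of RPL28, RPS7, RPL22 and RPL37 on each array, by group, in WM35 (top) and Mel-624 (bottom). Points are arrays, bars are means of 3, and every panel spans the same width on the log2 scale, centred on its own values. Within WM35, RPL28 is highest in hypoxia control (9.80 to 9.93). Within Mel-624, RPL28 is lowest in hypoxia with siIGF1R (7.43 to 7.69), and RPS7 is lower with siIGF1R at both oxygen levels. Levels are not compared between the lines, which were normalized apart.

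In all, 20 of the 65 genes were called in at least 1 pairwise comparison, 8 in WM35 and 15 in Mel-624, and 45 in none. That is 30.8% of the 65, where 77.1% of the 8391 genes tested in both lines were called at least once. By line it is 12.3% in WM35 and 23.1% in Mel-624, where 30.2% and 70.3% of all tested genes were called at least once. Whether a treatment acted differently at the 2 oxygen levels was tested by the interaction. In WM35 0 of 66 genes passed, where 0.0105% of all genes did so upward and 0.0418% downward. There 3 had an unadjusted limma p below 0.05 (4.55%), against 8.60% of all genes. In Mel-624 0 of 67 passed, against 0.226% and 0.592%. Only RPS3A (0.36, limma adjusted p = 0.25) had an unadjusted p below 0.05 there (1.49%), against 15.2% of all genes.

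Among the ribosomal protein genes, more calls fell on those with lower signal than on brighter ones. At a cut of 12 on the log2 scale, chosen after the values were seen, 47 of the 66 genes in WM35 and 50 of the 67 in Mel-624 lay at or above it. With siIGF1R 3 of the 50 brighter and 7 of the 17 dimmer genes were called in normoxia, and 1 and 10 in hypoxia. The median size of the change, without sign, was 0.10 in the brighter and 0.36 in the dimmer genes in normoxia, and 0.08 and 0.34 in hypoxia. For hypoxia with siControl the called genes were 0 of 50 and 5 of 17, and for hypoxia without IGF1 in WM35 they were 1 of 47 and 3 of 19.

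Other genes were split at the same cut. Among those in Mel-624, 11.2% of the 392 brighter and 16.2% of the 8833 dimmer genes were called for siIGF1R in normoxia, where the ribosomal protein genes had 6% and 41.2%. In hypoxia 14.3% and 26.4% of the other genes were called, where the ribosomal protein genes had 2% and 58.8%. For hypoxia with siControl the other genes had 31.6% and 52.8%, against 0% and 29.4%. In WM35 20.5% of the 308 brighter and 20.8% of the 9195 dimmer other genes were called for hypoxia without IGF1, against 2.13% and 15.8% of the ribosomal protein genes. Signals of different probes are not levels of abundance, since each probe binds with its own strength, and the part of brightness in these counts was not tested.

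**Figure D5:**
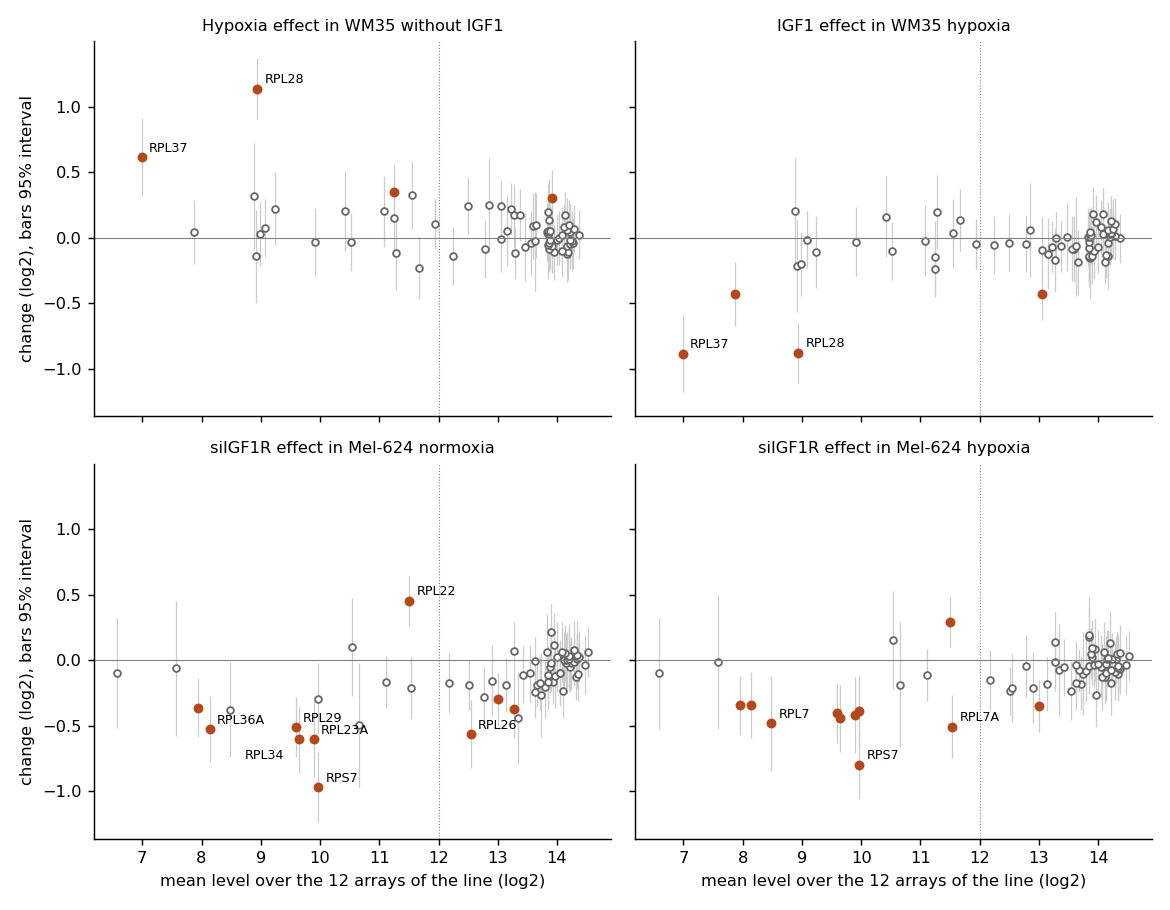
Change (log2, with 95% interval) of each of 65 ribosomal protein genes against its mean normalized level over the 12 arrays of its line, for 4 comparisons. Filled points were called by limma at an adjusted p below 0.05, and the dotted line marks a level of 12. Most points beyond 12 lie close to 0. Changes there reach a size of 0.43 with IGF1 in WM35 hypoxia and 0.56 with siIGF1R in normoxia. Most filled points sit to the left of the dotted line.

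Several genes are read by more than 1 probe, and their probes did not always move alike. In each line 26 genes had at least 2 kept probes, and none had probes called in opposite directions. The examples here were chosen after their values were seen, and their p-values were adjusted over all kept probes. RPS15, a small subunit protein, had a dim probe at 9.34, 9.23 and 9.25 with siControl and 8.11, 8.13 and 8.23 with siIGF1R in normoxia, and at 9.09, 9.40 and 9.38 against 8.34, 8.18 and 8.06 in hypoxia. Its changes were -1.12 ± 0.11 and -1.09 ± 0.11 (limma adjusted p = 0.000162 and 5.71e-05), where the brightest RPS15 probe changed by -0.12 and -0.27 and was not called. RPS24, mutated in some patients with Diamond-Blackfan anaemia, had a second probe at 11.32, 11.16 and 11.24 with siControl and 10.34, 9.98 and 10.16 with siIGF1R in normoxia. It changed by -1.08 ± 0.12 there and -0.75 ± 0.12 in hypoxia, against -0.10 and -0.23 for the brightest RPS24 probe.

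Further examples, chosen after their values were seen, came from hypoxia in Mel-624, where some dim probes moved further than the brightest probe of their gene and others did not. RPS29, a zinc-binding protein of the small subunit, had 1 dim probe that read 8.47, 7.93 and 8.08 in normoxia and 9.27, 9.53 and 9.46 in hypoxia with siControl, a rise of 1.26 ± 0.16 (limma adjusted p = 3.81e-05), and a rise of 1.44 ± 0.16 with siIGF1R. The same RPS29 probe read 8.60, 7.81 and 7.95 in WM35 hypoxia control and 7.06, 6.24 and 7.04 with IGF1, a fall of 1.34 ± 0.26 (limma adjusted p = 0.0147). No other RPS29 probe was called in any of these comparisons. A dim RPL36 probe rose by 0.94 ± 0.12 and 1.02 ± 0.12 with hypoxia in Mel-624, where the brightest RPL36 probe changed by 0.22 and 0.17 and was not called. For RPL9 and RPL32 a dim probe rose by 0.76 ± 0.12 and 0.74 ± 0.12 with hypoxia and siControl, and for RPL6 one fell by 0.64 ± 0.14. The probes of 1 gene can bind different transcript forms or processed copies of it, and which transcripts these probes bind was not tested.

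Among genes that build ribosomes, as opposed to being part of them, many fell with hypoxia. Of 21 tested assembly and ribosomal RNA processing genes, 15 fell and 1 rose with hypoxia and siControl in Mel-624, with a median of -0.64, and 16 fell and 1 rose with siIGF1R, where 28.4% and 27.3% of all genes fell. NOP56, a core protein of the particles that methylate ribosomal RNA, fell by 1.81 ± 0.10 (limma adjusted p = 4.4e-08), LTV1, needed to mature the small subunit, by 1.34 ± 0.12, and NOB1, the nuclease that finishes the small subunit's RNA, rose by 0.91 ± 0.12. In WM35 hypoxia lowered 10 and raised 1 of the 21 without IGF1, with a median of -0.33, and lowered 7 with IGF1, where 10.7% and 7.36% of all genes fell. Added IGF1 in hypoxia raised 4 of the 21, NOP56, RRS1, MRTO4 and DKC1, by 0.33 to 0.57, and lowered 0, where 4.5% of all genes rose. The siIGF1R pool lowered 1 and raised 2 in normoxia and lowered 1 and raised 1 in hypoxia. The difference between these genes and the ribosomal protein genes was not tested.

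A list of other transcripts taken to begin with an oligopyrimidine tract was called upward about as often as genes at large in Mel-624 hypoxia with siControl. Most are of translation, but HNRNPA1, NAP1L1 and the non-coding SNHG1 lie outside that machinery. The starts of the listed genes were not looked up here. Of 17 tested, 4 rose, PABPC1, EEF1D, NAP1L1 and EEF2, by 0.27 to 0.34, where 23.2% of all genes rose, and 0 fell, where 28.4% fell, with a list median of 0.12. With siIGF1R HNRNPA1, EIF3H and EIF3F rose with hypoxia by 0.50, 0.36 and 0.32, and 0 fell. In WM35 HNRNPA1 and NAP1L1 rose with hypoxia without IGF1, by 0.43 and 0.37, and SNHG1 fell with hypoxia in the presence of IGF1, by 0.45 ± 0.11. Added IGF1 lowered SNHG1 in WM35 hypoxia by 0.40 ± 0.11 and moved 0 of the 17 in normoxia. The siIGF1R pool moved 0 of the 17 in normoxia, and in hypoxia it lowered EEF2 and EIF4B and raised EIF3E. Of 7 listed L-suffixed paralogs left out by the rule, 5 were tested in WM35 and 4 in Mel-624. RPL39L fell by 0.39 ± 0.12 and RPS27L by 0.35 ± 0.13 with hypoxia and siControl in Mel-624. RPL26L1 fell by 0.36 ± 0.10 with hypoxia in WM35 without IGF1 and was also called lower with IGF1. The siIGF1R pool lowered RPL39L in normoxia, and added IGF1 raised RPL7L1 in WM35 hypoxia. Of 9 tested factors of ribosome maturation, recycling and quality control, 2 rose and 1 fell with hypoxia and siControl in Mel-624. Of all genes 23.2% rose and 28.4% fell there. NMD3, which carries the large subunit out of the nucleus, rose by 0.55 ± 0.16, PELO, which rescues stalled ribosomes, rose by 0.53 ± 0.10, and ABCE1, which splits the subunits apart after translation, fell by 0.77 ± 0.11. With siIGF1R PELO, SBDS and NMD3 rose and ABCE1, EFL1, NEMF and ZNF598 fell. In WM35 without IGF1 hypoxia lowered SBDS by 0.82 ± 0.18, ABCE1 by 0.40 ± 0.09 and NMD3 by 0.33 ± 0.11 and raised EFL1 by 0.46 ± 0.12, and with IGF1 it lowered EIF6 and ABCE1. Added IGF1 in WM35 hypoxia raised SBDS and ABCE1. The siIGF1R pool raised NEMF and LTN1 in normoxia and lowered ABCE1 in hypoxia. Of all genes, 22.7% rose and 27.3% fell with hypoxia and siIGF1R in Mel-624. WM35 hypoxia raised 9.98% and lowered 10.7% of them without IGF1, and raised 8.19% and lowered 7.36% with it. Added IGF1 in WM35 hypoxia raised 4.5% and lowered 4.56%. The siIGF1R pool raised 8.49% and lowered 7.47% in normoxia, and raised 13.1% and lowered 12.7% in hypoxia. No list of this paragraph was tested against these shares.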

How the data were processed

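The main deposited table pairs a mean signal intensity with a detection p-value, per the file headers, for every probe of all 24 arrays. Per the submitters' processing notes the signals came from GenomeStudio (version not given). They are not normalized between arrays, and values below 0 occur because background had been subtracted. A second deposited table holds normalized signal intensity for 38221 probes and served as an alternative. The deposited table's log2 values correlated with those computed here at r = 0.996 to 0.998 per array.

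The neqc function of limma (version 3.58.1) corrected background and quantile normalized each line, with an offset of 16 before log2 values were taken. R 4.3.3, its data.table package (version 1.17.8) and, for figures, matplotlib 3.10.9 were used. Of the 47231 probes 27003 carry 1 gene symbol, 4 several and 20224 none. A probe was kept in a line at a detection p below 0.01 on at least 3 of its 12 arrays, and the brightest kept probe stood for its gene. The 4 group means of a line were fitted with lmFit and eBayes, and p-values were adjusted by Benjamini-Hochberg over all tested genes. Values after ± are standard errors. The number of arrays limits the precision, and the median SE of a ribosomal protein gene's change was 0.10. The fit was tested on simulated data.

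The genes and lists were chosen with earlier results of these data known. Named are 15 fixed genes where tested and, per comparison, the 6 largest called rises and falls, with other called genes added after their values were seen. Alternatives were other background, scaling, filter and probe rules, a replicate block, only the arrays compared, a fold threshold and each array left out. The main fit did not pair same-lettered arrays (see the closing section).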

Additional observations from a re-analysis of the deposited data

Results flagged for a closer look

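RPL28, a large subunit protein, changed in opposite directions with hypoxia in the lines. Among the controls its change was 1.14 in WM35 and -0.39 in Mel-624, a difference of 1.52, and among the treated groups it was 0.78 and -0.37, a difference of 1.15. All 3 hypoxia arrays lay above all 3 normoxia arrays in WM35 and below them in Mel-624. For RPL35A the changes among the controls were 0.18 and -0.13, a difference of 0.30. For RPS3 they were 0.17 and -0.10, a difference of 0.27. Arrays were again apart in opposite directions, but neither RPL35A nor RPS3 was called in either line. How often this happened over all tested genes was not counted, so neither can be called unusual. The differences between the lines were not tested, because line and BeadChip cannot be told apart and the lines were normalized apart. Hypoxia also lasted 24 h in WM35 and 3 days in Mel-624, only Mel-624 was transfected, and its oxygen percentage is not given. None of these can be told apart from line.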

How the results depend on the processing

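Of 36 calls on named genes, 6 held under each alternative tried: RPL37 and RPL28 with IGF1 in WM35 hypoxia, RPL28 with hypoxia in WM35 without and with IGF1, and RPS7 with siIGF1R at both oxygen levels. RPL22 and RPL12 turned to -0.029 and -0.0035 for hypoxia in WM35 without IGF1 when arrays were not normalized. Counts below are genes called, in the order IGF1 in normoxia and hypoxia, hypoxia without and with IGF1 (WM35), siIGF1R in normoxia and hypoxia, hypoxia with siControl and siIGF1R (Mel-624), and a comparison not named stayed within 1.5 times its count. Requiring a 1.5-fold change gave 1, 2, 2, 1, 3, 1, 1 and 2. Median centring gave 7 and 5 for WM35 hypoxia and 20, 20, 30 and 35 in Mel-624, with medians of 0.14, 0.10, -0.24, -0.21, 0.29 and 0.30. Without normalization the counts were 38 for IGF1 in normoxia, 30 and 1 for WM35 hypoxia and 1, 1, 3 and 1 in Mel-624. The medians were then -0.33 for IGF1 in normoxia, -0.26 for hypoxia without IGF1, 0.29 for the WM35 interaction, -0.21 for siIGF1R in normoxia, -0.063 for hypoxia with siControl and 0.17 for the Mel-624 interaction, and those of all genes reached -0.40 (hypoxia without IGF1). Testing each probe gave 0 for IGF1 in normoxia, 16 for siIGF1R in normoxia and 13 and 16 for Mel-624 hypoxia, and averaging probes gave 1, 9 and 10 for IGF1 in normoxia and Mel-624 hypoxia. Without a detection filter siIGF1R in hypoxia gave 7. For IGF1 in normoxia the count was 1 without that filter, without further background correction and with the deposited values, and 0 with only the arrays compared. Leaving out the normoxia control array C and the hypoxia control array A together gave 2 for WM35 hypoxia without IGF1. The cause of these shifts was not tested.

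With 1 array left out, counts ran from 0 to 2, 2 to 4, 2 to 4 and 1 to 3 in WM35 and from 7 to 12, 3 to 12, 1 to 6 and 2 to 6 in Mel-624, in the same order. Same-lettered arrays correlated in their deviations from group means at -0.28 to 0.41 in WM35 and -0.04 to 0.18 in Mel-624. Values above 0.1 came from 8 of 18 pairs of arrays in WM35 and 5 of 18 in Mel-624. These values do not settle whether the letters pair the arrays. The replicate block gave 0 calls for IGF1 in normoxia and moved no other count by over 1.5 times.

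Most ribosomal protein genes lie near the top of the signal range, and whether signal there stays in proportion to transcript level was not tested. Probe sequences were not used here, so binding to processed pseudogenes or paralogs could not be examined. The 3 arrays per group limit the precision of each value.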
